A study of Mus musculus with 6 samples.

Results

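The genes examined here were 10 genes of insulin and insulin-like growth factor (IGF) signalling, chosen by name: the receptors Insr, Igf1r and Igf2r, the ligands Igf1 and Igf2, the receptor substrates Irs1 and Irs2, and the mRNA-binding proteins Igf2bp1, Igf2bp2 and Igf2bp3. They were looked for among 14761 gene annotations in mRNA-seq libraries of MVT1 cells, a cell line of mouse mammary epithelial cancer of the FVB/N strain. Cells grown in DMEM with serum and antibiotics were stained for CD24, a protein anchored on the cell surface, and sorted by FACS into CD24- cells, which do not show it, and CD24+ cells, which do. Each group had 3 libraries, with RNA taken from separate plates of adherent cells in DMEM with serum and not directly at the sort. Both groups came from the same line with no other treatment or genotype between them. As no repeated sorts were described, the spread between libraries is that between plates, and what differs with CD24 cannot be told apart from what else differed between the sorted populations. Of the 10 genes, 9 had an annotation, 8 had enough reads to be tested, and 6 differed between the groups, beside 46.1% of all genes tested. Irs1 was higher in CD24+ cells, beside 23.8% of all genes, and 5 genes were lower, beside 22.3%.

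Insulin and the IGFs act through receptor tyrosine kinases. Insr binds insulin and Igf1r binds IGF1 and IGF2, and on binding they phosphorylate the docking proteins Irs1 and Irs2, which recruit PI3-kinase and so switch on AKT and mTOR, while the adaptors Shc and Grb2 lead to RAS and MAP kinase. Igf2r carries no kinase: it delivers lysosomal enzymes tagged with mannose 6-phosphate and removes IGF2 from the cell surface for degradation. The Igf2bp proteins were named for binding the mRNA of Igf2, and they bind many other transcripts as well, among them that of Myc. In the mammary gland this pathway takes part in growth of the ducts and in tumours of the epithelium.

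Sequences of some of these genes are given first, as a description. The study trimmed its reads to 47 nt, and each deposited value is the number of times such a sequence was read. For Igf2bp1 a sequence is shown from each of 2 annotated first exons, because the balance of their reads differed between the groups. The first is the most read coding sequence of exon 1, at chr11:95866836-95866882 of mm9, on the minus strand. The second is the first 30 bases of the most read sequence of an alternative first exon, whose read lies at chr11:95843853-95843899.
Igf2bp1 exon 1: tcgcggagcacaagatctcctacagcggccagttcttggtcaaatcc
Igf2bp1 alternative first exon: aacatccttgcagagattagatttcactgc

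Igf2bp1 is a textbook target of the let-7 microRNAs, so the letters to which their seed could pair are shown too. The mature let-7a-5p of RefSeq is printed with its seed, bases 2 to 8, in capitals, and all 8 let-7 5p names in the table carry this seed. The letters CTACCTC, its reverse complement, occurred in the 3' UTR of 8.98% of 20515 mouse coding transcripts (the longest per gene in GENCODE M21, sense strand only). They occurred 4 times in the 3' UTR of Igf2bp1, which 0.0585% of these transcripts matched or exceeded. That 3' UTR is 6337 nt long, and the comparison did not take length into account. Igf1r held 2 sites, Insr, Igf2r, Igf1, Irs2, Igf2bp2 and Igf2bp3 held 1 each, and Irs1 and Igf2 held none. A match of letters is a description and not a shown site of binding, and let-7 itself was not measured in these libraries. The sites of Igf2bp1 are printed in their order along the 3' UTR, with the letters paired to the seed in capitals.
mmu-let-7a-5p: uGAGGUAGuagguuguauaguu
Igf2bp1 site 1: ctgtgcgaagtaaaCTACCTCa
Igf2bp1 site 2: agcagtgctattaaCTACCTCa
Igf2bp1 site 3: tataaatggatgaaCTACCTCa
Igf2bp1 site 4: cttttggttttaatCTACCTCt

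Irs1 and Irs2 moved in opposite directions, and the 250 bases before their starts are shown for that reason (RefSeq, GRCm38.p6, minus strand for both). That of Irs1 lies at chr1:82291440-82291689 and that of Irs2 at chr8:11008930-11009179. The capitals mark the E-box letters CACGTG, which read the same on both strands and to which Myc and its relatives can bind.
Irs1 promoter: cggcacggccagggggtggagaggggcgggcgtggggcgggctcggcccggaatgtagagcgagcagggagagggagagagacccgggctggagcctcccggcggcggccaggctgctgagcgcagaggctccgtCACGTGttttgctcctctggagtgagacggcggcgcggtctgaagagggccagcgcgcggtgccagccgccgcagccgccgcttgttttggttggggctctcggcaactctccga
Irs2 promoter: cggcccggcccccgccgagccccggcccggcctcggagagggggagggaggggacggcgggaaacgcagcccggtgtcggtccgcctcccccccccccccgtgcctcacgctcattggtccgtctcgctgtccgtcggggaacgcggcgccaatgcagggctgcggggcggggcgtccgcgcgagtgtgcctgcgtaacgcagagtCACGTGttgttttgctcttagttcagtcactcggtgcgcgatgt
The table of promoters held 8 of the 10 genes, with 4 entries for Igf2 and none for Insr or Igf2bp1. In windows from 250 bases before to 50 after the start, the E-box letters occurred for 4 of these 8 genes (Irs1, Irs2, Igf2r and Igf2bp3), beside 7.15% of 32851 mouse promoters. The units differ, as the 8 genes had 11 promoters and the percentage counts single promoters. The forkhead letters TGTTTAC, sought on both strands, occurred for none of the 8 and in 3.65% of all promoters. Genes with the E-box letters included 1 that was higher, 2 that were lower and 1 that did not pass the test in CD24+ cells.

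The libraries held 9046025 to 25692147 mapped reads, of which 71.8% to 74.3% carried a gene annotation. Of 11125 genes tested with edgeR's quasi-likelihood test, 46.1% passed an adjusted p of 0.05 between the groups, 23.8% higher and 22.3% lower in CD24+ cells. Cd24a itself stood at 10.2 ± 2.79 CPM in CD24- and 77.1 ± 7.30 CPM in CD24+ cells (SD, n = 3). CPM are counts per 1000000 gene reads, with the gene reads of each library multiplied by its TMM factor (0.979 to 1.01), unless another scale is named. Of the luminal keratins that mark mammary epithelium, Krt8 was read at 1229 ± 76.0 CPM in CD24- and 596 ± 60.8 CPM in CD24+ cells, whereas the epithelial markers Epcam and Cdh1 had 6 and 2 reads over all libraries and Elf5 had no annotation. The summed CPM of 9 luminal markers, nearly all from Krt8 and Krt18, ranged from 1951 to 2131 in CD24- and from 835 to 966 in CD24+ libraries. Of the 5 luminal markers tested 4 were lower, while Esr1 was higher, at 8.48 ± 1.297 and 20.1 ± 1.602 CPM. That of 6 fibroblast markers, in CD24+ cells mostly Pdgfrb, ranged from 9.13 to 16.01 and from 64.8 to 97.9, with no annotation for Lum and Thy1, and that of 8 basal markers, in CD24+ cells mostly Acta2, from 0.631 to 1.46 and from 6.77 to 14.2. That of 5 leukocyte markers, mostly Cd68, ranged from 46.7 to 80.6 and from 7.17 to 9.60, with 2 reads for Ptprc and no annotation for Adgre1 and Cd3e. The endothelial markers summed to at most 3.98 CPM and the adipocyte markers to at most 0.282 CPM. Cldn5, Emcn, Plin1, Lep and Cidec had no annotation. The part of these shifts in the results below was not tested, and in bulk RNA fewer cells of a kind and less RNA per cell cannot be told apart.

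The ligands were not detectable at this depth in the counts used here. No annotation used here read Igf2, and no read matched its transcripts in GENCODE. Igf1 had 1 annotated read, in a CD24+ library, and 1 unannotated read matched its transcripts. A count of 0 allows up to 3 reads per library, which is 0.157 to 0.462 CPM without the TMM factor, so no fold-change is given for either gene. This limit, like the other absences of reads below, holds only if the counts used here are complete for these genes, which could not be checked. The insulin genes Ins1 and Ins2, and H19, which lies beside Igf2 and is imprinted in the opposite sense, also had no annotation and no matching reads.

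Insr, the insulin receptor, was read less in CD24+ cells. It stood at 103, 104 and 76.9 CPM in the CD24- libraries and at 48.4, 52.3 and 63.0 CPM in the CD24+ libraries. The groups did not overlap, and the highest CD24+ library lay below the lowest CD24- library. The log2 fold-change (CD24+ over CD24-) was -0.78 (SE 0.13), or 57.8% of the CD24- level, with an adjusted p of 9.28e-04 (edgeR, Benjamini-Hochberg over all genes tested).

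Igf1r, the receptor for IGF1, had 193, 210 and 186 CPM in the CD24- libraries and 155, 180 and 185 CPM in the CD24+ libraries. The groups did not overlap, but the gap between the nearest libraries was small. The log2 fold-change of -0.18 (95% interval -0.38 to 0.02) did not pass the test, at an adjusted p of 0.128 by edgeR. The interval leaves room for no difference and for a decrease by 0.38 on the log2 scale.

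Igf2r, the scavenger of IGF2, was the most read of the 10 genes. It had 793, 804 and 624 CPM in the CD24- libraries and 444, 458 and 546 CPM in the CD24+ libraries. Again no CD24+ library reached the lowest CD24- library. Its log2 fold-change was -0.62 (SE 0.12), with an adjusted p of 0.00179 by edgeR. Airn, a noncoding RNA read from the opposite strand within the Igf2r locus, had no annotation in the files. By exact match to GENCODE it had 54, 62 and 48 reads in the CD24- and 44, 124 and 166 reads in the CD24+ libraries. These came to 5.85 ± 0.255 and 7.59 ± 1.12 CPM of the reads that match a single gene. When such reads were fitted with edgeR, 45.6% of 12120 genes passed, and Airn, at a log2 fold-change of 0.41 and an adjusted p of 0.0798, did not. The libraries do not mark strand, and of the reads annotated to Igf2r 97.05% matched its own transcripts alone.

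The receptor substrates gave the largest difference and the only opposed pair. Irs1 had 2.21, 2.08 and 2.03 CPM in the CD24- libraries, from 21, 22 and 18 reads, and 13.2, 12.9 and 13.6 CPM in the CD24+ libraries, from 84, 229 and 259 reads. The plates of each group lay close together and the groups were far apart. The mean of CD24+ was 6.28-fold that of CD24-, with a log2 fold-change of 2.64 (SE 0.17) and an adjusted p of 1.01e-06 by edgeR. Irs2 had 27.2, 26.2 and 22.4 CPM in the CD24- libraries and 11.2, 11.6 and 14.98 CPM in the CD24+ libraries. No CD24+ library reached the CD24- range, and the mean was 49.8% of that in CD24- cells. Its log2 fold-change was -0.99 (SE 0.14), with an adjusted p of 3.15e-04 by edgeR.

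**Figure D1:**
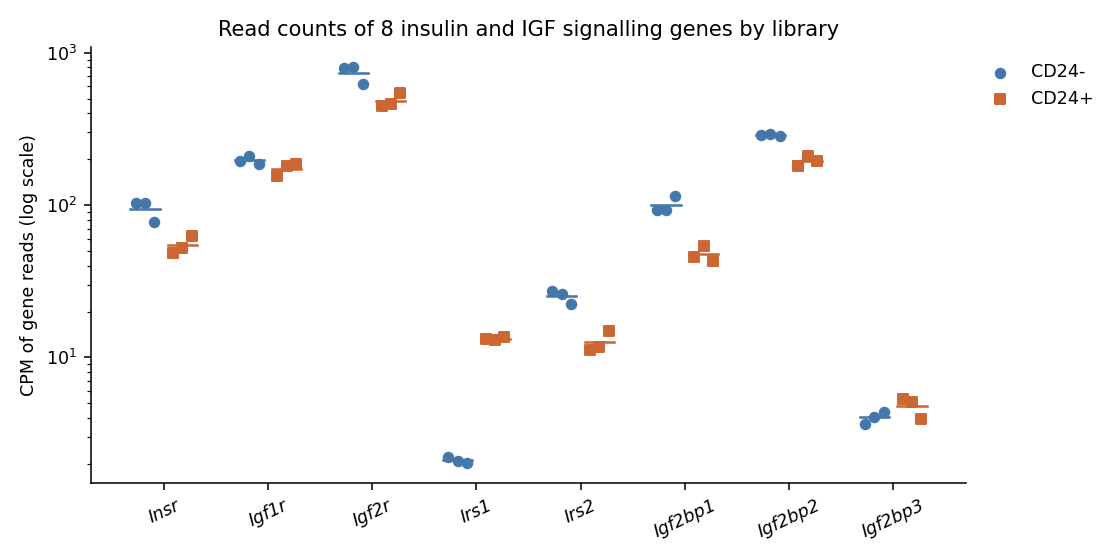
CPM of gene reads on a log axis for the 8 tested genes, with a point for each library and a line at the mean of 3 libraries. Irs1 sits between 2.03 and 2.21 CPM in CD24- and between 12.9 and 13.6 CPM in CD24+ libraries, while Insr, Igf2r, Irs2, Igf2bp1 and Igf2bp2 are lower in CD24+ and the groups of Igf2bp3 overlap.

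CPM does not compare genes of unequal length, so Irs1 and Irs2 were also set side by side per kb. Here only reads that match transcripts of a single gene and lie inside an exon of its longest coding transcript were counted, per kb of such positions and per 1000000 reads of the library that match a single gene. On this scale the level of Irs1 was 0.290, 0.206 and 0.218 in the CD24- and 1.37, 1.39 and 1.63 in the CD24+ libraries. That of Irs2 was 8.22, 8.48 and 6.15 in the CD24- and 2.90, 3.10 and 4.22 in the CD24+ libraries. The ratio of Irs1 to Irs2 was thus 0.0317 ± 0.00640 in CD24- and 0.436 ± 0.0432 in CD24+ cells (SD, n = 3), 13.8-fold higher, and Irs2 remained the more read substrate per kb in all 6 libraries. The exact permutation test of the log ratio (two-sided) gave 0.1, the smallest p that 3 libraries against 3 allow. As Irs1 was higher and Irs2 lower in every CD24+ library, this outcome was fixed in advance and adds no support.

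The ratio of Insr to Igf1r, which bears on the balance of insulin to IGF receptors, was 0.842, 0.774 and 0.652 per kb in the CD24- and 0.509, 0.478 and 0.557 in the CD24+ libraries. Insr lay below Igf1r in all 6 libraries, and more so in CD24+ cells, without overlap (exact permutation test, p = 0.1, the smallest possible). The longest run of letters that Insr and Igf1r transcripts share was 43 nt, so no 47 nt read could be exchanged between these related genes, and the same held for Irs1 with Irs2 and for each pair of Igf2bp genes.

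**Figure D2:**
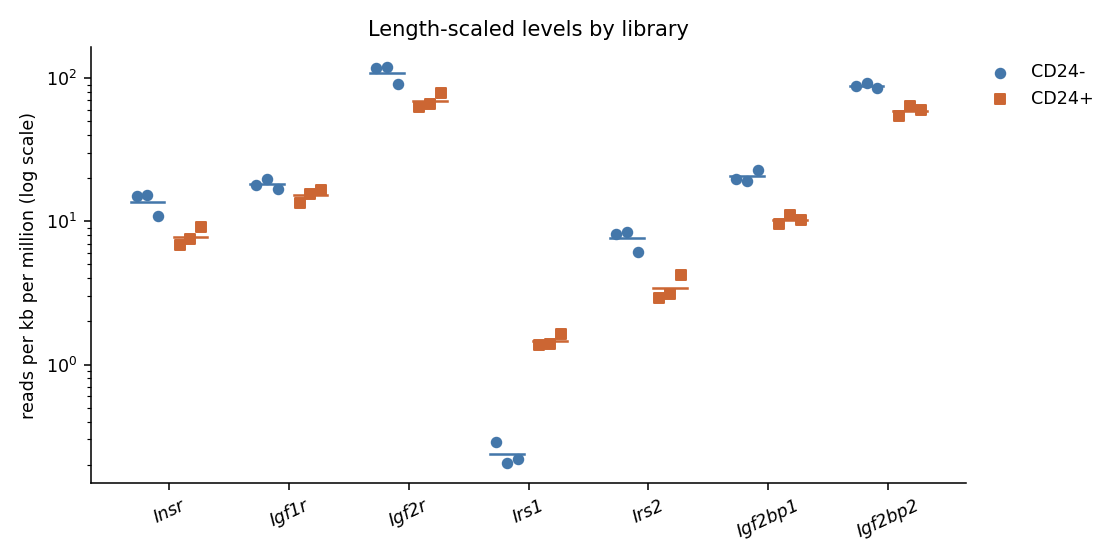
Length-scaled levels (reads of a single gene per kb of its longest coding transcript and per 1000000 reads that match a single gene, log axis) by library, with lines at the mean of 3 libraries. Irs1 is below Irs2 in both groups, but the gap narrows from CD24- to CD24+ libraries, where their ratio is 0.436.

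In CD24- cells the order of the levels per kb was Igf2r (109 ± 15.99), Igf2bp2 (88.7 ± 3.10), Igf2bp1 (20.6 ± 1.87), Igf1r (18.1 ± 1.48), Insr (13.8 ± 2.42), Irs2 (7.62 ± 1.28) and Irs1 (0.238 ± 0.0453). The libraries of Igf2r and Igf2bp2 overlapped, as did those of Igf2bp1 and Igf1r, and the other neighbours did not. In CD24+ cells Igf2r (69.2 ± 8.86) and Igf2bp2 (59.3 ± 4.57) again led and overlapped. They were followed by Igf1r (15.2 ± 1.58), Igf2bp1 (10.3 ± 0.742), Insr (7.83 ± 1.21), Irs2 (3.41 ± 0.709) and Irs1 (1.46 ± 0.148), with no overlap between neighbours. These overlaps depend on the positions counted. When all annotated transcripts were merged, the length also took in positions across exon junctions, where exact mapping to the genome gives no reads. The order of the means was then kept, but Igf2r and Igf2bp2 lay apart in both groups. On that scale Igf2bp1 lay above Igf1r in CD24- cells (15.6 to 18.4 against 10.7 to 12.4) and overlapped it in CD24+ cells (7.80 to 9.06 against 8.51 to 10.5), and Insr and Irs2 overlapped in CD24- cells.

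Among the mRNA-binding proteins, Igf2bp1 fell the most. This oncofetal protein, which binds Myc mRNA and others, had 93.0, 92.1 and 115 CPM in the CD24- libraries and 45.8, 53.5 and 42.9 CPM in the CD24+ libraries. The groups were apart by more than their spread, with a log2 fold-change of -1.08 (SE 0.12) and an adjusted p of 4.32e-05 by edgeR. Igf2bp2, the member of the family most common in adult tissues, had 288, 293 and 284 CPM in CD24- and 182, 211 and 195 CPM in CD24+ libraries, also without overlap. Its log2 fold-change was -0.56 (SE 0.08), with an adjusted p of 2.63e-04 by edgeR.

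Igf2bp3 had 3.68, 4.07 and 4.39 CPM in CD24- and 5.35, 5.08 and 3.93 CPM in CD24+ libraries, which overlapped. The log2 fold-change of 0.22 (95% interval -0.25 to 0.68) had an adjusted p of 0.418 by edgeR. These values say little of Igf2bp3 itself, since only 25 of its 316 annotated reads matched its transcripts alone, 113 matched transcripts of several genes and 175 matched none. For the other 7 tested genes, between 90.9% and 97.05% of the annotated reads matched transcripts of the gene alone.

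**Figure D3:**
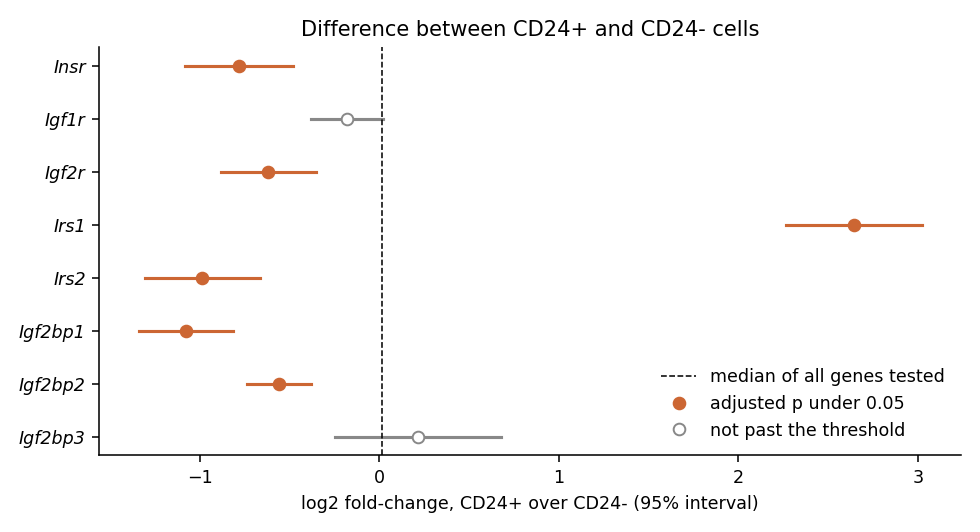
Log2 fold-change of CD24+ over CD24- with its 95% interval from edgeR for the 8 tested genes, filled where the adjusted p is under 0.05. Irs1 stands alone on the right at 2.64, 5 genes lie left of the dashed median of all genes tested (0.02) with intervals that do not reach it, and the intervals of Igf1r and Igf2bp3 cross it.

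Of the 8 tested genes, 6 passed the threshold, beside 46.1% of all genes tested. In the downward direction 5 passed, beside 22.3% of all genes, and in the upward direction 1, beside 23.8%. The CPM of the groups did not overlap for 6 genes lower in CD24+ cells, beside 27.6% of all genes, and for 1 gene higher, beside 29.7%. In an estimate that follows the study's method (median coverage with a regularizer of 10, tested with limma) the log2 fold-changes were smaller, at -0.25 for Insr, -0.26 for Irs2 and -0.33 for Igf2bp1. Their calls were kept. Irs1 could not be tested there, as too few libraries had any median coverage of it. The genes whose levels over the 6 libraries were nearest to those of Irs1 (Euclidean distance of centred log2 CPM) were Ttc39c, Setbp1, Mapk12, Mtap1a and Ephx2, at distances of 0.10 to 0.20.

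The difference in Igf2bp1 was uneven along the transcript. This pattern, and the exons named, were picked after the values were seen. In the transcript with 15 exons in GENCODE M21, exon 1 took 9.26%, 10.99% and 7.64% of the exonic reads in the CD24- libraries and 3.37%, 3.98% and 3.46% in the CD24+ libraries. Exon 1 thus held a smaller share in every CD24+ library than in any CD24- library. Scaled to reads of a single gene, exon 1 stood at 14.6 ± 1.52 CPM in CD24- and 2.86 ± 0.467 in CD24+ cells, 5.10-fold lower. Exons 5 to 15 stood at 143 ± 15.7 and 75.6 ± 5.38 CPM on the same scale, 1.89-fold lower.

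Reads inside an exon do not show where a transcript starts or how it is spliced, and unspliced RNA was not told apart. GENCODE also lists 3 noncoding transcripts of Igf2bp1 that begin at an alternative exon between exons 2 and 3 and join exon 3 directly or through an extra exon. In mm9 the reads of that exon lie at chr11:95843815-95843924, and those of exon 1 at chr11:95866772-95867246. The alternative exon had 2, 2 and 6 reads in the CD24- and 6, 20 and 15 reads in the CD24+ libraries, while exon 1 had 129, 166 and 115 and then 16, 59 and 51 reads. The alternative exon gave 2.56% ± 2.09 of the first-exon reads in CD24- and 25.1% ± 2.28 in CD24+ cells (SD, n = 3). The exons differ in length: 22 distinct sequences were read in the alternative exon and 228 in exon 1. As the share is not scaled to length, it compares the groups and does not give the proportion of transcripts with either exon. The highest CD24- library, at 4.96% with an exact binomial 95% interval of 1.84% to 10.5%, lay below the lowest CD24+ library, at 22.7% with an interval of 13.3% to 34.7%. These intervals cover counting error only, and they treat reads as independent although some are copies of 1 sequence, so they may be too narrow. The most read sequence of the alternative exon gave 4 of the 6 reads in CD24- replicate 3. In CD24+ replicates 1, 2 and 3 it gave 3 of 6, 1 of 20 and 6 of 15. Scaled to reads of a single gene, the alternative exon stood at 0.370 ± 0.283 CPM in CD24- and 0.958 ± 0.174 CPM in CD24+ cells. No test is given, as the exons were picked on these values.

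The use of the ends of transcripts also moved in some of the other genes, and its part in the Igf2bp1 result was not tested. The last exon of Igf2bp1 took 59.2% ± 2.03 of exonic reads in CD24- and 67.5% ± 2.18 in CD24+ cells, and that of Insr 49.1% ± 1.98 and 54.6% ± 1.89. The last exon of Irs2 moved the other way, from 50.1% ± 2.97 to 45.8% ± 1.17, also without overlap, and those of Igf1r, Igf2r, Irs1 and Igf2bp2 overlapped. At the other end, the share of exon 1 was higher in CD24+ cells for Igf2r (0.995% and 1.27%), Igf1r (0.424% and 0.689%) and Irs2 (49.9% and 54.2%), with no overlap, and overlapped for Insr, Irs1 and Igf2bp2. Shares of a gene are parts of a whole, so its exons do not move independently. Irs2 has only 2 exons, so its 2 shares show the same change, and exon 1 of Igf1r had only 68 reads over all libraries. Of 106 exons of these genes with at least 100 reads, 9.43% had shares lower in CD24+ cells without overlap and 5.66% had shares higher. Exon 1 of Igf2bp1 had the largest change of share among these 106, with a log2 ratio of -1.37.

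**Figure D4:**
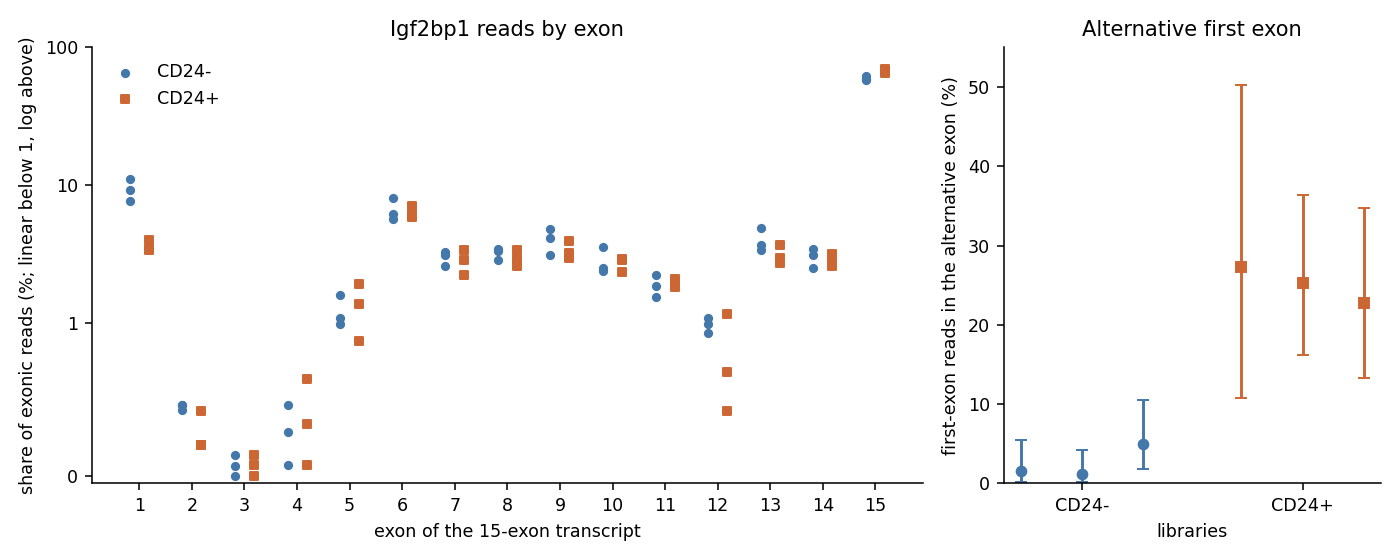
Left, share of exonic reads by exon of the 15-exon Igf2bp1 transcript for each library (axis linear below 1% and logarithmic above). Right, share of first-exon reads that lie in the alternative exon for each library, not scaled to exon length, with exact binomial 95% intervals. Exon 1 is lower in the CD24+ libraries, at 3.37% to 3.98% of reads, and the alternative exon takes 22.7% to 27.3% of their first-exon reads.

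Of 99 other genes of the pathway listed by role, 83 had an annotation and 77 were tested. By edgeR, 15 were higher and 19 lower in CD24+ cells, and the median log2 fold-change was -0.02, beside 0.02 for all genes tested. That is 34 of 77, beside 46.1% of all genes.

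Next to the receptors, M6pr, the smaller mannose 6-phosphate receptor, fell slightly (log2 fold-change -0.20, adjusted p = 0.0415 by edgeR). Without CD24- replicate 1 or 2 or CD24+ replicate 2 or 3 it lost its call, with adjusted p up to 0.156 by edgeR, and likewise with the replicate block (0.117). Ide, which degrades insulin, did not pass the test (log2 fold-change 0.12, adjusted p = 0.245 by edgeR). Insrr and Sorcs1 had no annotation and no reads, and Enpp1 had 9 reads by match to GENCODE. Of 16 tested receptor adaptors and PI3-kinase subunits, 5 were higher and 4 lower, beside 23.8% and 22.3% of all genes. The regulatory subunits Pik3r3 and Pik3r1, which bind phosphorylated Irs proteins, rose from 8.61 ± 0.899 to 31.9 ± 4.04 CPM and from 62.1 ± 3.52 to 113 ± 12.1 CPM. The adaptors Sh2b1 and Grb2 fell by 0.29 and 0.23 on the log2 scale, and Sh2b1 no longer passed (adjusted p = 0.163) when only reads of a single gene were counted. Grb2 lost its call without CD24- replicate 1 or 2 or CD24+ replicate 3, with adjusted p up to 0.0912 by edgeR, and with the replicate block (0.0855), and Sh2b1 without CD24- replicate 1, with 0.0711. In the median-coverage estimate neither passed (limma), and Grb2 stood at a log2 fold-change of 0.02 and Sh2b1 at -0.04. Sos2, which activates RAS, had no annotation of its own, and by reads of a single gene fell from 100.1 ± 10.8 to 71.8 ± 4.12 CPM (log2 fold-change -0.46, adjusted p = 0.00278 by edgeR).

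Of 24 tested genes of AKT, TSC and mTOR, 2 were higher and 5 lower, beside 23.8% and 22.3% of all genes. The kinases Akt1 and Akt2, at log2 fold-changes of -0.11 and 0.06, did not pass the test. Foxo3, a transcription factor that AKT keeps out of the nucleus, rose from 28.8 ± 4.45 to 48.2 ± 4.23 CPM. Rptor, the mTORC1 subunit raptor, which the files list as 4932417H02Rik, fell by 0.45 on the log2 scale, with an adjusted p of 0.0507 by edgeR when each distinct sequence was counted once. Mapkap1, an mTORC2 subunit, rose by 0.27 on that scale, although reads of a single gene came to only 17.2% of its annotated count and it lost its call without CD24- replicate 1 or 2 or CD24+ replicate 3, with adjusted p up to 0.0805 by edgeR. In the RAS and MAPK arm 3 of 12 were higher and 3 lower, beside the same shares of all genes. Mapk3 (ERK1) and the kinase Rps6ka3 rose by 0.50 and 0.49, and Rps6ka1 and Araf, a RAF kinase, fell by 0.96 and 0.93, all on the log2 scale. Without CD24+ replicate 3 the adjusted p of Mapk3 was 0.0646 by edgeR, and with each distinct sequence counted once it was 0.191.

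Of 13 tested negative regulators, 4 were higher and 2 lower, beside 23.8% and 22.3% of all genes. Trib3, a pseudokinase that binds AKT, rose from 18.9 ± 2.22 to 168 ± 69.5 CPM (log2 fold-change 3.14), with a wide spread among CD24+ plates from 95.3 to 234 CPM. Ddit4, an inhibitor of mTORC1 that responds to stress, rose from 68.5 ± 17.1 to 271 ± 45.7 CPM. The phosphatase Inpp4b fell from 19.6 ± 2.28 to 8.55 ± 2.30 CPM and Socs6 by 0.46 on the log2 scale. In the median-coverage estimate Socs6 stood at 0.03 and did not pass (adjusted p = 0.765, limma). Phlpp1 and Phlpp2 had no annotation of their own, and by reads of a single gene their log2 fold-changes were 0.08 and 0.06 and did not pass the test, while Grb10 had neither annotation nor reads.

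Of the genes named as IGF binding proteins, Igfbp7 rose from 65.6 ± 1.79 to 241 ± 49.4 CPM. Igfbp4 fell from 711 ± 121 to 535 ± 80.6 CPM, and Igfbp6 was not past the threshold. Igfbp4 lost its call without CD24- replicate 1 or 2 or CD24+ replicate 2 or 3, with adjusted p up to 0.132 by edgeR, and at 0.297 with each distinct sequence counted once. Igfbp1, Igfbp2, Igfbp3 and Igfbp5 had no annotation and no matching reads in the counts used here. Of 7 tested partners and targets of the Igf2bp proteins, 3 passed the test and were lower. Over all genes tested 46.1% passed, and 22.3% were lower. Myc fell from 897 ± 116 to 251 ± 50.9 CPM (log2 fold-change -1.83, adjusted p = 5.77e-06 by edgeR). MVT1 cells came from a tumour of mice carrying Myc and Vegf transgenes, and reads of a transgene cannot be told from those of the gene. Hmga1, a chromatin protein, fell by 0.62 on the log2 scale. Hmga2, a let-7 target with 4 seed matches in its 3' UTR as in Igf2bp1, had 186 ± 38.4 and 185 ± 43.9 CPM and did not pass the test. Lin28b, with 4 such matches, had too few reads for a test, and Lin28a had none.

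**Figure D5:**
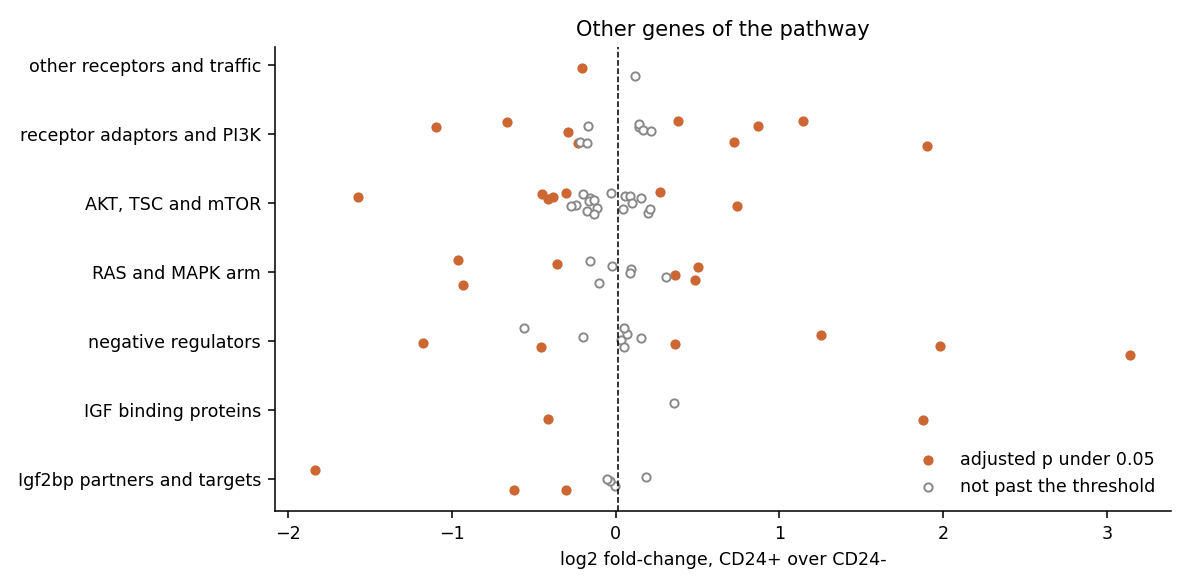
Log2 fold-change of CD24+ over CD24- for the 77 other tested genes of the pathway, 1 point a gene, by role, filled where the adjusted p by edgeR is under 0.05. The dashed line is the median of all genes tested, and Trib3 at 3.14 and Myc at -1.83 are the outermost points.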

How the data were processed

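Total RNA of sorted MVT1 cells was taken from 3 plates a group, where the adherent cells were grown in DMEM with serum. It was made into libraries with a TruSeq RNA v2 kit, which does not mark strand, and sequenced. The authors trimmed reads to 47 nt, collapsed identical ones, mapped them by exact match and gave each 1 annotation. They deposited, for each library, the whole-number count of every mapped sequence, neither normalized nor pooled. Exact matching loses reads over exon junctions and variants. The genome build was mm9 in the submitters' processing notes. Neither the mapping tool nor the annotation's source is given in the sources used here.

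The counts were summed per annotation and scaled to gene reads (6491829 to 19100833 per library) times the TMM factor. Rows without an annotation (16.9% to 20.2% of reads) and repeats (7.56% to 10.2%) were left out. Of 14761 gene annotations, 12443 were current symbols and 1956 a synonym of one. Genes passing filterByExpr were fitted in edgeR 4.0.16 (TMM, quasi-likelihood F test, Benjamini-Hochberg, threshold 0.05, R 4.3.3) over all 11125 genes, which was tested on simulated data. Libraries of a group differed by more than sampling noise, and unevenly. Chi-square divided by its degrees of freedom was 1.72 between CD24- replicates 1 and 2. Between CD24- replicate 3 and each of these it was 9.93 and 11.6, and between CD24+ libraries it was 9.77 to 15.9. Reads were also matched to GENCODE M21 transcripts by exact sequence with Python 3.11.15, for levels per kb and exon shares. Alternatives were DESeq2 1.42.0, other filters and scalings, thinned counts, limma 3.58.1 on a median coverage with a regularizer of 10, a replicate block and each library left out.

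The genes and lists were chosen with earlier results of these data known. From each list the text names up to 2 called genes with the largest rise and 2 with the largest fall among those whose mean log2 CPM was 3 or more. Other genes named were chosen after their values were seen. Some genes the rule takes are not reported here. p-values measure the spread between plates.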

Additional observations from a re-analysis of the deposited data

Results flagged for a closer look

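Reads outside the annotations of the 10 genes carried more of their transcripts. Igf2bp1 had 3414 reads that matched its transcripts alone but lay where the files give no annotation, beside 4487 under its name. These stood at 45.6 ± 2.30 CPM of mapped reads in CD24- and 26.6 ± 3.36 in CD24+ libraries (SD, n = 3). For Irs2 there were 1094 such reads, at 16.9 ± 3.75 and 6.83 ± 1.596 CPM, and for Irs1 there were 61, at 0.104 ± 0.180 and 0.868 ± 0.496 CPM. Insr had 1291 reads under another name, at 17.2 ± 2.82 and 9.94 ± 1.85 CPM. In each gene these reads differed between the groups in the same direction as the annotated ones. When all reads of a single gene were counted, edgeR gave log2 fold-changes of -0.97 for Igf2bp1, -1.13 for Irs2, 2.65 for Irs1 and -0.79 for Insr, with adjusted p of 2.12e-05, 2.27e-04, 2.34e-06 and 9.86e-04. Airn, which the files do not annotate, had 498 reads.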

How the results depend on the processing

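For the 8 tested genes, all 117 alternative fold-changes had the same sign and the same call. The count of called genes stayed at 6 except in the median-coverage estimate, where it was 5 because Irs1 could not be tested there. The log2 fold-change over all settings ranged from 2.61 to 2.80 for Irs1, from -0.91 to -0.25 for Insr, from -0.73 to -0.43 for Igf2r, from -1.16 to -0.26 for Irs2, from -1.19 to -0.33 for Igf2bp1 and from -0.62 to -0.44 for Igf2bp2. The ends nearest 0 for Insr, Irs2 and Igf2bp1 come from the median-coverage estimate. Igf1r ranged from -0.24 to -0.07 and Igf2bp3 from 0.14 to 0.34. Leaving out each library in turn gave 6 called members each time, 4069 to 5358 genes called and 25 to 39 other pathway genes called. With each distinct sequence counted once, 21 other pathway genes were called against 34. Over all genes 3697 were then called against 5130, and the cause was not tested. Of the named genes in those lists, M6pr, Grb2, Sh2b1, Mapkap1, Mapk3 and Igfbp4 lost their calls without at least 1 library. All 6 and Rptor also did so with each distinct sequence counted once, M6pr, Grb2, Sh2b1, Mapk3, Igfbp4 and Socs6 in the median-coverage estimate, where Grb2 and Socs6 changed sign, and M6pr without a filter or thinned.

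The titles give both groups the same replicate numbers, although the headers of the CD24+ files carry other numbers. The numbers were not used as pairs in the main fit. Deviations of libraries with the same number in the titles correlated at 0.01, -0.25 and -0.31, and other combinations at -0.20 to 0.30. Deviations within 3 libraries offset each other, so these values cannot show whether libraries were paired. With the replicate block 4493 genes, 6 members and 30 other pathway genes were called, and among named genes M6pr (adjusted p = 0.117, edgeR) and Grb2 (0.0855) lost their calls.

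With all annotated transcripts merged, the length includes more positions, among them those across exon junctions, where exact mapping gives no reads. Levels per kb then fell. They were, for CD24- and CD24+ cells, 8.51 and 4.85 for Insr, 11.5 and 9.62 for Igf1r, 80.1 and 50.6 for Igf2r, 16.7 and 8.41 for Igf2bp1, and 38.5 and 25.6 for Igf2bp2, with the order of the means kept in both groups but not the overlaps between neighbours. The share of the alternative Igf2bp1 exon in CD24+ cells was 19.8% with each distinct sequence counted once, an alternative added after seeing the data. Irs1 rests on 18 to 22 reads in each CD24- library, and the alternative exon on 2 to 20 reads in each library.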
